A study of Mus musculus with 6 samples.

Results

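Wnt pathway genes were examined in Comma-Dβ cells after knockdown of Id4, as ligands, receptors, antagonists and feedback targets. The members were the genes of the deposited table named Wnt, Fzd, Sfrp, Dkk or Lgr4 to Lgr6 with their numbers, and 19 further genes named singly, such as Lrp5, Notum, Axin2 and Ctnnb1. They came to 56 of the 25655 genes, namely 18 ligands, 9 Frizzled receptors, 8 co-receptors and other receptors, 9 secreted antagonists, 6 feedback inhibitors and 6 transcription factors. Comma-Dβ is an established mouse mammary epithelial line, used at passage 29. In the siID4 arm (3 libraries) the cells received a siGENOME SMARTpool of siRNAs against mouse Id4, and in the NT arm (3 libraries) an ON-TARGETplus non-targeting pool. Both pools were given at 20 nM with Dharmafect-4, in medium with serum, insulin and EGF, and RNA was taken after 48 hr. The siRNA product line differed between the arms, so its effects and those of lower Id4 cannot be told apart.

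Wnt proteins are secreted, lipid-modified ligands that bind Frizzled receptors. With LRP5 or LRP6 as co-receptor they stabilise β-catenin, which enters the nucleus and acts through TCF and LEF factors, while other Wnts, of which WNT5A is the best studied, mostly signal without β-catenin. Several β-catenin targets encode inhibitors of the same pathway and so form negative feedback. In the mammary gland, Wnt signals act on basal cells and stem cells and on duct growth.

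Total counts were between 19.2 M and 23.1 M per library. Id4, the siRNA target, was at 59.4, 62.2 and 48.2 CPM (read counts put per library size with TMM scaling) in siID4 cells, against 135, 114 and 118 CPM in NT cells. Keratin genes of the epithelium were abundant in both arms. Krt5 averaged 727 CPM in siID4 and 822 CPM in NT cells, and Krt14 868 CPM in siID4 and 936 CPM in NT cells. Neither passed in the fit with group as its only term. Epithelial markers moved in both directions. Of 7 general markers of mammary epithelium, Cdh1 and Trp63 rose and Epcam fell. Of 6 basal markers, Acta2, Snai2 and Trp63 rose and Itgb4 fell, and of 8 luminal markers, Kit and Gata3 rose. These are 42.9%, 66.7% and 25.0% of the lists, against 9.55% of all genes tested. With the replicate number as a block in the fit, 2 general markers were higher and 4 lower (85.7%, against 36.1% of all genes). Of the basal markers 3 were then higher and 2 lower (83.3%), and of the luminal markers 3 higher and 3 lower (75.0%). The general list summed to 2122 to 2470 CPM in siID4 and 2304 to 2636 CPM in NT libraries. Basal markers summed to 2743 to 3076 CPM in siID4 and 2589 to 3041 CPM in NT libraries, and luminal markers to 311 to 350 CPM in siID4 and 305 to 366 CPM in NT libraries. The marker lists too were chosen with earlier results of these data known. Of 10 fibroblast markers, 8 were tested, and Col1a1, Col1a2 and Pdgfrb rose and Pdgfra fell, or 50% against the same 9.55%. With the block, 5 were higher and 3 lower (100%, against 36.1%). Thy1 met the filter on low counts in fewer than 3 libraries of an arm. Without Thy1, 4 of 7 (57.1%) passed in the fit with group as its only term. The list summed to 3586 to 3699 CPM in siID4 and 2524 to 2761 CPM in NT libraries, and Dpt and Lum were under 1 CPM. Of the endothelial and pericyte markers, 0 of 1 tested passed, and 1 with the block. It was Kdr, which also met that filter in fewer than 3 libraries of an arm, so its pass adds no support. This list summed to 1.89 to 2.72 CPM in siID4 and 0.84 to 1.50 CPM in NT libraries. Leukocyte markers (0 of 2 tested passing) summed to 3.35 to 3.77 CPM in siID4 and 3.03 to 3.11 CPM in NT libraries. Adipocyte markers (0 tested) summed to 0.18 to 0.41 CPM in siID4 and 0.20 to 0.22 CPM in NT libraries, with Plin1 at 0 throughout. The part of the fibroblast and epithelial markers in the results below was not tested, and in bulk libraries fewer cells of a type and less RNA per cell cannot be told apart.

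After Id4 knockdown the non-canonical ligand genes Wnt5a and Wnt5b, the antagonist genes Dkk3 and Sfrp2 and the transcription factor gene Lef1 rose. Notum, which encodes a secreted enzyme that inactivates Wnt proteins, fell. Of the 56 members, 41 had enough counts to be tested and 6 of these changed at an adjusted p under 0.05 (edgeR's quasi-likelihood test with Benjamini-Hochberg adjustment over all genes tested), against 9.55% of all genes tested. The 5 that rose stand against 4.62% of all genes, and the single one that fell against 4.93%. The median log2 fold change of the 41 was 0.12, against 0.00079 over all genes tested. Wnt11, Sfrp2 and Wif1 passed the filter on low counts through the siID4 libraries and Sfrp4 through the NT libraries, and without those 4 the median was 0.11 and 5 of 37 members (13.5%) were called, 4 of them higher. At an unadjusted p under 0.05 there were 13 of the 41 (31.7%), against 25.6% of all genes. Arms did not overlap for 11 of the 41, or 26.8%, against 30.9% of all genes tested. The labels state no pairing, but libraries of the same replicate number deviated together (correlation across genes 0.42, 0.14 and 0.38 for numbers 1 to 3). The numbers were therefore taken as pairs in an alternative fit. With the number as a block 20 of the 41 passed, 15 higher and 5 lower, or 48.8% against 36.1% of all genes. The members called numbered 1 without siID4 replicate 2, 2 without NT replicate 2 and 8 without NT replicate 1, all 8 higher. Without siID4 replicate 1, 3 members were higher and 2 lower. Over all genes, 1331 were called with every library, 445 without siID4 replicate 2 and 1351 without NT replicate 1. Fewer genes were also called without NT replicate 2, so the counts of 1 and 2 members came with fewer calls over all genes.

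**Figure D1:**
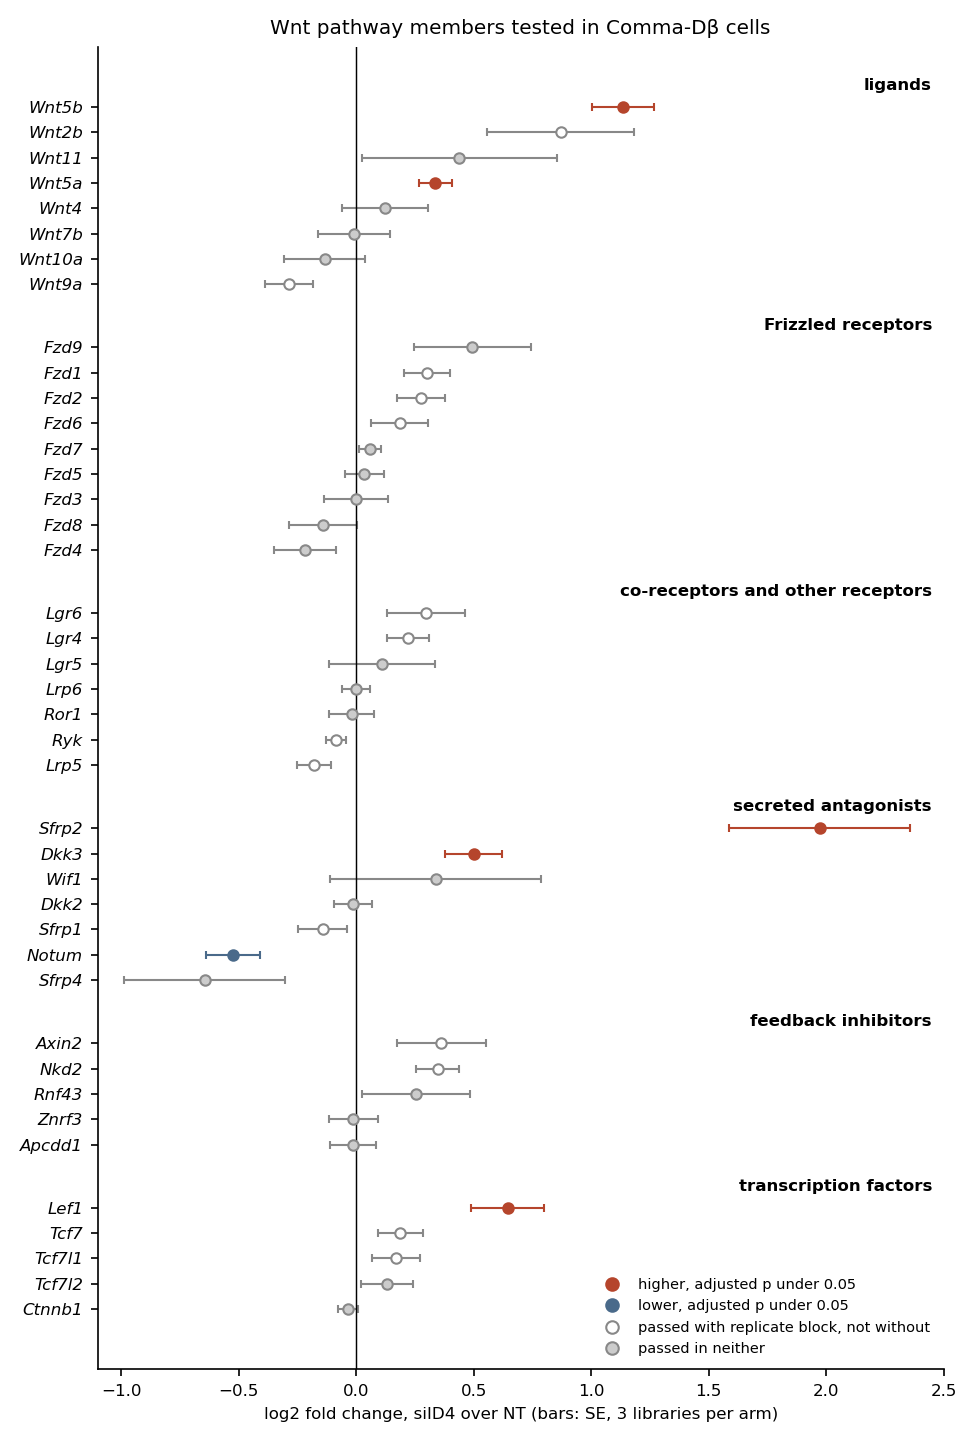
Log2 fold change of siID4 over NT for the 41 members tested, grouped by role, with bars for the standard error and 3 libraries per arm. Filled red and blue points passed at an adjusted p under 0.05, and they show 5 members higher, from Wnt5a at 0.34 to Sfrp2 at 1.97, and Notum lower at -0.53. Open points passed with the replicate block but not without it, and grey points in neither fit.

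Among the 8 ligands tested, Wnt5b had the largest log2 fold change in size. Wnt5b (ENSMUSG00000030170, chr6:119432531-119544347, minus strand of GRCm38) had 7.99, 7.74 and 6.58 CPM in siID4 cells, against 3.51, 3.34 and 3.30 CPM in NT cells. Every siID4 library lay above every NT library. The mean was 7.44 ± 0.754 CPM in siID4 and 3.39 ± 0.113 CPM in NT cells (SD, n = 3 each, exact permutation p = 0.1, the smallest that 3 against 3 can give). Its fitted log2 difference was 1.13 (SE 0.13, edgeR adjusted p = 0.00177), and it passed in all 6 fits that left out a library (adjusted p up to 0.0175). These levels rest on 150 to 185 counts per library in siID4 and 64 to 75 in NT cells.

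A pair of Wnt5b start regions from RefSeq are shown because Wnt5b was the called member that passed without any one library, and because they hold the motifs searched. Each window runs from 250 bases before to 50 after a transcription start (GRCm38.p6), and the table does not say which start the cells used. Capitals mark CTTTGAT, the core bound by TCF and LEF factors, and the E-boxes CACCTG and CAGCTG, which E proteins, the partners of ID proteins, bind. Both strands were searched (ATCAAAG and CAGGTG are the other strands, and CAGCTG reads alike on both), and matches do not share bases in the windows printed.
Wnt5b at chr6:119544298-119544597, minus strand: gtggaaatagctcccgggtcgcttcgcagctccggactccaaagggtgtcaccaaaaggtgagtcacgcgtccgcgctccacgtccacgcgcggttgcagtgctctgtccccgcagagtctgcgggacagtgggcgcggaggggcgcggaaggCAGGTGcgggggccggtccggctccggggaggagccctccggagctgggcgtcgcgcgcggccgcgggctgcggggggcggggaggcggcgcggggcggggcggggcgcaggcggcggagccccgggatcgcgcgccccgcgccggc
Wnt5b at chr6:119449337-119449636, minus strand: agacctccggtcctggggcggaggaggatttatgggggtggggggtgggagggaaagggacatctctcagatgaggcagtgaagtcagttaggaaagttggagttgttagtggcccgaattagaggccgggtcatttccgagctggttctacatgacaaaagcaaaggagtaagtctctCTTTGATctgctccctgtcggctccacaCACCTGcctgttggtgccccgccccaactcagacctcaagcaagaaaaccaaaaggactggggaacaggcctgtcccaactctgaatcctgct
The first window lies at the gene's annotated start and holds CAGGTG once. The second holds CTTTGAT once and CACCTG once. The third RefSeq window of the gene holds none of the motifs. Of the 56 members, 39 had a RefSeq window, 49 windows in all. The called members Wnt5a, Dkk3 and Notum had no window, and those of Axin2 and Nkd2 held none of the motifs. CTTTGAT was in 3 of the 49 (6.12%), those of Wnt5b, Wnt11 and Sp5, against 3.73% of all 32851 windows. CACCTG was in 13 (26.5%, against 20.2% of all) and CAGCTG in 5 (10.2%, against 16.3%).

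Wnt5a encodes the ligand best known for signalling without β-catenin. Wnt5a (ENSMUSG00000021994, chr14:28504750-28527448, plus strand) had 108, 105 and 92.3 CPM in siID4 cells, against 84.6, 80.5 and 77.0 CPM in NT cells. The arms did not overlap. Its fitted log2 difference was 0.34 (SE 0.07, edgeR adjusted p = 0.0167), with adjusted p up to 0.0903 when siID4 replicate 2 or NT replicate 2 was left out. Its antisense neighbour Gm2670, which shares exon bases, was at 0.18 to 0.35 CPM in siID4 and 0.26 to 0.50 CPM in NT libraries. The ratio of Wnt5b to Wnt5a, per kilobase of gene length, was 0.132, 0.132 and 0.128 in siID4 cells, against 0.0744, 0.0744 and 0.0768 in NT cells, with no overlap (exact permutation p = 0.1, the smallest possible, and 0.257 adjusted over 9 ratios and sums that were chosen after the values were seen).

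Wnt7b, which acts through β-catenin in several tissues, stood beside Wnt5a as one of the 2 most abundant ligands. Its level per kilobase averaged 25.8 CPM in siID4 and 25.9 CPM in NT cells, against 26.9 CPM in siID4 and 21.3 CPM in NT cells for Wnt5a. Wnt7b had 78.3, 83.0 and 99.9 CPM in siID4 cells and 70.2, 85.8 and 106 CPM in NT cells, with arms that overlapped (log2 fold change -0.01, SE 0.15, adjusted p = 0.983). Wnt10a came next, at 12.1 CPM per kilobase in siID4 and 13.3 CPM per kilobase in NT cells. Wnt9a was at 9.24, 9.10 and 8.77 CPM in siID4 cells, against 10.7, 10.1 and 12.1 CPM in NT cells, with no overlap (log2 fold change -0.29, adjusted p = 0.119). It passed with the block (adjusted p = 0.0146), as did Wnt2b, which averaged 1.37 ± 0.235 CPM in siID4 and 0.747 ± 0.312 CPM in NT cells (log2 fold change 0.87, adjusted p = 0.116 without and 0.0128 with the block). The other tested ligands, Wnt4 and Wnt11, did not pass (log2 fold changes 0.12 and 0.44).

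Of the 18 ligand genes, 10 had too few counts to be tested. Wnt3 and Wnt8b were at 0 in all 6 libraries, and Wnt1, Wnt8a and Wnt9b were under 0.1 CPM in each. Wnt3a, Wnt6, Wnt7a, Wnt10b and Wnt16 reached at most 0.72 CPM in a library. Wnt16 had 0.39, 0.45 and 0.22 CPM in siID4 cells, against 0.15, 0 and 0.13 CPM in NT cells, which do not overlap but rest on few counts. Summed over the 18 genes, ligand mRNA per kilobase was 74.8 ± 2.14 CPM in siID4 and 68.3 ± 8.54 CPM in NT cells (exact permutation p = 0.4). Wnt5a and Wnt5b together made up 44.4%, 42.1% and 35.6% of it in siID4 libraries, against 39.2%, 34.6% and 28.1% in NT libraries. The share was higher in siID4 in each of the 3 numbers, but the arms overlapped (exact permutation p = 0.2).

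**Figure D2:**
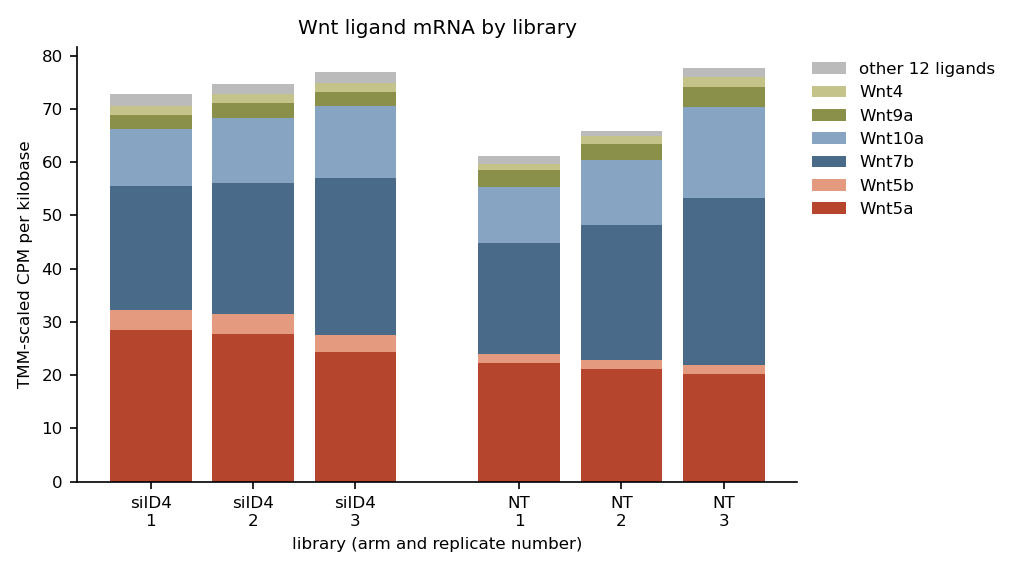
Stacked level of Wnt ligand mRNA in each library, in TMM-scaled CPM per kilobase, with the siID4 libraries on the left and the NT libraries on the right. Wnt5a and Wnt7b make up most of every bar, and the summed height averages 74.8 CPM per kilobase in siID4 and 68.3 in NT libraries.

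No receptor gene changed in the fit without the block. All 9 Frizzled genes were tested and 0 passed, while 2 (22.2%, against 25.6% of all genes) did at an unadjusted p under 0.05 and 3 with the block (33.3%, against 36.1%). Both shares were below those over all genes. Fzd7 and Fzd6 were the most abundant. Fzd7, a receptor of mammary stem and basal cells, had 128, 123 and 120 CPM in siID4 cells and 121, 114 and 121 CPM in NT cells (log2 fold change 0.06, SE 0.05, adjusted p = 0.476). Fzd6, which acts mainly in planar polarity, had 117, 94.9 and 101 CPM in siID4 cells and 110, 84.0 and 82.5 CPM in NT cells, and the arms overlapped (log2 fold change 0.19, adjusted p = 0.388, 9.84e-05 with the block). Fzd1 had 91.5, 76.9 and 76.5 CPM in siID4 cells, against 74.5, 59.0 and 65.4 CPM in NT cells, with no overlap (log2 fold change 0.30, SE 0.10, adjusted p = 0.0932). It passed with the block (8.86e-08) and with DESeq2 (0.0472). Fzd2 stood at 38.8 ± 3.01 CPM in siID4 and 32.1 ± 4.32 CPM in NT cells (log2 fold change 0.27, adjusted p = 0.128, 1.69e-04 with the block). Together Fzd1 and Fzd2 were 32.2%, 32.8% and 33.2% of Frizzled mRNA per kilobase in siID4 cells, against 29.1%, 29.0% and 31.4% in NT cells. The exact permutation p was 0.1, the smallest possible, and 0.257 adjusted over the 9 ratios and sums. This sum was among those chosen after the values were seen. The other 5 Frizzled genes had log2 fold changes from -0.22 (Fzd4) to 0.49 (Fzd9), none past the test in either fit.

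Of 8 co-receptor and other receptor genes, 7 were tested and 0 passed without the block. At an unadjusted p under 0.05 there were 2 (28.6%, against 25.6% of all genes), and with the block 2 were higher and 2 lower (57.1%, against 36.1%). Ryk, a receptor of the Ryk family that binds Wnts, and Lrp5 were the most abundant per kilobase. Ryk had 119, 122 and 119 CPM in siID4 cells, against 124, 129 and 128 CPM in NT cells, with no overlap and a small difference (log2 fold change -0.09, SE 0.04, adjusted p = 0.250, 0.0296 with the block). Lrp5 had 184, 155 and 157 CPM in siID4 cells and 198, 183 and 180 CPM in NT cells, with arms that overlapped (log2 fold change -0.18, SE 0.07, adjusted p = 0.159, 1.57e-05 with the block). Lrp6, the paralogous co-receptor, averaged 149 ± 8.07 CPM in siID4 and 149 ± 8.35 CPM in NT cells. The difference had an SE of 0.06 on the log2 scale and changed sign between settings.

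LGR receptors bind R-spondins and keep Frizzled receptors at the membrane. Lgr4 averaged 74.2 ± 7.52 CPM in siID4 and 63.8 ± 6.10 CPM in NT cells (log2 fold change 0.22, adjusted p = 0.162, 2.67e-05 with the block). Lgr6 had 14.8, 13.5 and 19.7 CPM in siID4 cells and 11.5, 11.9 and 15.5 CPM in NT cells (log2 fold change 0.30, adjusted p = 0.304, 0.00176 with the block). Lgr5, a marker of several epithelial stem cells, was near 1 CPM in every library. Ror1 was at 8.41 ± 0.246 CPM in siID4 and 8.52 ± 0.172 CPM in NT cells, and Ror2, the other receptor of its family, was under 1 CPM and not tested.

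The secreted antagonists moved in both directions. Of 9, 7 were tested, and 2 rose and 1 fell (42.9%, against 9.55% of all genes). Of those 7, Sfrp2 and Wif1 passed the filter on low counts through the siID4 libraries and Sfrp4 through the NT libraries, and among the other 4 Dkk3 rose and Notum fell. Dkk1 and Sfrp5 were at 0 in every library. Dkk3 is the divergent member of the Dickkopf family, and its effect on Wnt signalling varies between settings. Dkk3 (ENSMUSG00000030772, chr7:112116017-112159057, minus strand) had 260, 231 and 205 CPM in siID4 cells, against 192, 160 and 141 CPM in NT cells. The arms did not overlap. Its fitted log2 difference was 0.50 (SE 0.12, edgeR adjusted p = 0.0433). Testing all genes unfiltered gave 0.153, and it also failed without siID4 replicate 1 or 2 or NT replicate 2 or 3 (up to 0.122).

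Notum is a carboxylesterase that removes the lipid from Wnt proteins, and its gene is itself a β-catenin target in several tissues. Notum (ENSMUSG00000042988, chr11:120653788-120661175, minus strand) had 67.0, 62.0 and 49.1 CPM in siID4 cells, against 93.0, 85.9 and 77.6 CPM in NT cells. Every siID4 library lay below every NT library. The mean was 59.4 ± 9.24 CPM in siID4 and 85.5 ± 7.70 CPM in NT cells, and Notum fell by 0.53 on the log2 scale (SE 0.11, edgeR adjusted p = 0.0263). It did not pass without siID4 replicate 2 or NT replicate 1 or 2 (up to 0.0877). The antisense gene Notumos, which shares exon bases with it, was at 0.41 to 0.86 CPM in siID4 and 0.62 to 1.25 CPM in NT libraries.

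Sfrp2 encodes a soluble protein with a Frizzled-like domain that binds Wnts. Sfrp2 (ENSMUSG00000027996, chr3:83766321-83774316, plus strand) was rare, with 1.81, 1.31 and 0.92 CPM in siID4 cells, against 0.20, 0.47 and 0.35 CPM in NT cells. These are 42, 29 and 21 counts in siID4 and 4, 9 and 8 counts in NT libraries. Its fitted log2 difference was 1.97 (SE 0.39, edgeR adjusted p = 0.0145), and it passed in 5 of the 6 fits without a library, with 0.0619 without siID4 replicate 2. Of its libraries 3 siID4 and 1 NT were over the filter, so it was tested through the arm where it is high. Its antisense neighbour Gm26771, which shares exon bases, was at 0 to 0.10 CPM. Its RefSeq window holds none of the 3 motifs and is shown as the counterpart to those of Wnt5b.
Sfrp2 at chr3:83766071-83766370, plus strand: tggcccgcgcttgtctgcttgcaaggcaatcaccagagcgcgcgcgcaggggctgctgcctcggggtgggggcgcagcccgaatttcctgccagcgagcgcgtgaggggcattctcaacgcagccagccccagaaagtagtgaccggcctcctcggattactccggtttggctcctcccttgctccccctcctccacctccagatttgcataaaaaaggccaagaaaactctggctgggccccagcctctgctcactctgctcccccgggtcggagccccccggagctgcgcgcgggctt
Sfrp1, a relative of Sfrp2, was far more abundant, at 9.59 CPM per kilobase in siID4 and 10.6 CPM per kilobase in NT cells, against 0.674 CPM per kilobase in siID4 and 0.170 CPM per kilobase in NT cells for Sfrp2. It had 47.4, 40.1 and 38.2 CPM in siID4 cells and 50.7, 47.7 and 40.5 CPM in NT cells (log2 fold change -0.14, adjusted p = 0.446, 0.0286 with the block). Sfrp4 was at 0.383 ± 0.104 CPM in siID4 and 0.605 ± 0.106 CPM in NT cells (adjusted p = 0.280). Dkk2 (19.9 ± 1.48 CPM in siID4, 20.1 ± 0.476 CPM in NT cells) and Wif1, near 1 CPM, did not pass.

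**Figure D3:**
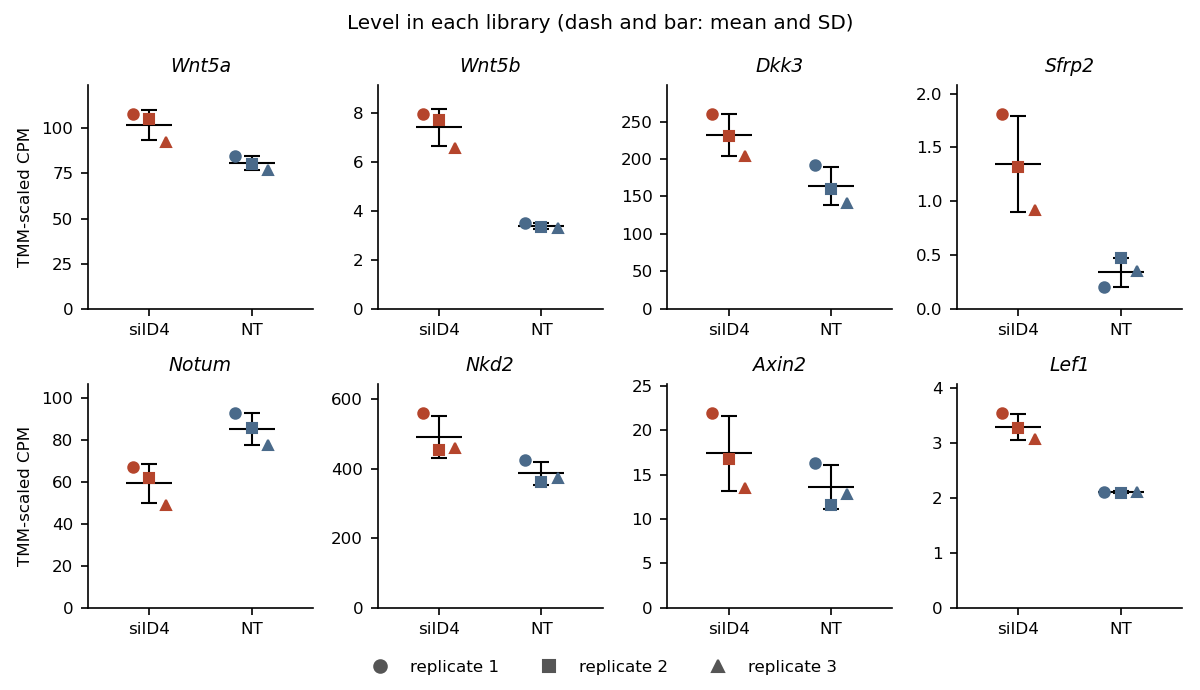
TMM-scaled CPM of 8 members in each library, siID4 on the left and NT on the right of each panel, with a symbol per replicate number and a dash and bar for the mean and SD. The arms are apart for Wnt5a, Wnt5b, Dkk3, Sfrp2, Notum, Nkd2 and Lef1 and overlap for Axin2.

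Of 6 feedback inhibitors that act in or at the cell, 5 were tested and 0 passed, against 9.55% of all genes. At an unadjusted p under 0.05 there was 1 (20.0%, against 25.6% of all genes), and with the block 2 were higher (40.0%, against 36.1%). Nkd2, the most abundant, was fitted above zero where Notum fell. Nkd2 encodes a Naked cuticle protein that binds Dishevelled and stood at 136 CPM per kilobase in siID4 and 107 CPM per kilobase in NT cells. Nkd2 (ENSMUSG00000021567, chr13:73818534-73847631, minus strand) had 560, 454 and 460 CPM in siID4 cells, against 424, 363 and 372 CPM in NT cells, with no overlap. Its fitted log2 difference was 0.35 (SE 0.09) with an edgeR adjusted p of 0.0514. It passed with the block (5.80e-12), DESeq2 (0.00474), limma-voom (0.0462), library totals (0.0341), upper quartile scaling (0.0494) and a mean of at least 5 CPM (0.0475). It did not pass with DESeq2 size factors (0.0542), with no filter (0.0571) or in 5 of the 6 fits that left out a library (up to 0.157). The ratio of Notum to Nkd2 per kilobase was 0.243, 0.278 and 0.217 in siID4 cells, against 0.446, 0.481 and 0.424 in NT cells. The exact permutation p was 0.1, the smallest possible, and 0.257 adjusted over the 9 ratios and sums chosen after the values were seen. The arms of both genes were already apart in opposite directions, so the ratio could not overlap and adds no support.

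Axin2, a scaffold of the complex that degrades β-catenin and a widely used Wnt reporter gene, had 21.9, 16.8 and 13.5 CPM in siID4 cells and 16.3, 11.5 and 12.8 CPM in NT cells. Gm11670, antisense to it, was at most at 0.05 CPM. The Axin2 arms overlapped (log2 fold change 0.36, SE 0.19, adjusted p = 0.278), while siID4 was higher in each of the 3 numbers, and it passed with the block (7.75e-04). Apcdd1, which encodes a membrane-bound inhibitor, had 51.2, 44.9 and 41.9 CPM in siID4 cells and 52.1, 45.3 and 42.2 CPM in NT cells. Its difference within a number was at most 0.02 on the log2 scale in size. Znrf3, which encodes an E3 ligase that removes Frizzled receptors, had 34.0, 26.4 and 30.8 CPM in siID4 cells and 32.7, 27.7 and 31.6 CPM in NT cells, with an SE of 0.10 on the log2 fold change. Its relative Rnf43 was at 1.34 ± 0.215 CPM in siID4 and 1.12 ± 0.136 CPM in NT cells. Nkd1, the paralogue of Nkd2, had 0.05 to 0.22 CPM in siID4 and 0 to 0.05 CPM in NT libraries and was not tested.

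Among the transcription factors, Lef1 was rare and rose. Lef1 (ENSMUSG00000027985, chr3:131110471-131224356, plus strand), a DNA-binding partner of β-catenin that is also its target, had 3.54, 3.26 and 3.07 CPM in siID4 cells, against 2.11, 2.09 and 2.11 CPM in NT cells. The arms did not overlap. Its fitted log2 difference was 0.64 (SE 0.16, edgeR adjusted p = 0.0338), on 70 to 82 counts in siID4 and 40 to 48 in NT libraries. It passed in 0 of the 6 fits without a library (adjusted p up to 0.116) and not with DESeq2 (0.0922). Its antisense neighbour Gm43352 shares exon bases with it, and no level of that gene was analysed here. Of 4 RefSeq windows of the gene, that with a CACCTG near its 3' end is shown beside those of Wnt5b. Another, at chr3:131112541-131112840, holds CAGCTG once and is not shown, and none of the 4 holds CTTTGAT.
Lef1 at chr3:131110073-131110372, plus strand: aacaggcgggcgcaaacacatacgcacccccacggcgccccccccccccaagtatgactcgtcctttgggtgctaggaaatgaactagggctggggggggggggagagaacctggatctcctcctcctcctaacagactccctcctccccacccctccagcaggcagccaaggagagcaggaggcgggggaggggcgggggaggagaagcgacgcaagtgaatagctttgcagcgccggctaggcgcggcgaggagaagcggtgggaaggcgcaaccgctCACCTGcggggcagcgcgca
The related factors were more abundant than Lef1 per kilobase. Tcf7 stood at 15.9 CPM per kilobase in siID4 and 14.0 CPM per kilobase in NT cells, against 1.17 CPM per kilobase in siID4 and 0.746 CPM per kilobase in NT cells for Lef1. Tcf7 had 41.0, 33.5 and 33.4 CPM in siID4 cells and 33.9, 29.8 and 31.0 CPM in NT cells, and the arms overlapped (log2 fold change 0.19, adjusted p = 0.256, 0.00879 with the block). Tcf7l1, mainly a repressor, lay 0.17 above NT on the log2 scale (adjusted p = 0.344, 0.0311 with the block), and Tcf7l2 0.13 (adjusted p = 0.502). Ctnnb1, which encodes β-catenin, had 874, 841 and 826 CPM in siID4 cells and 886, 870 and 846 CPM in NT cells (log2 fold change -0.03, SE 0.04, adjusted p = 0.670). Its mRNA does not show the protein's stability, which is where the pathway acts. Sp5, a direct β-catenin target in other tissues, had at most 0.05 CPM in any library.

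**Figure D4:**
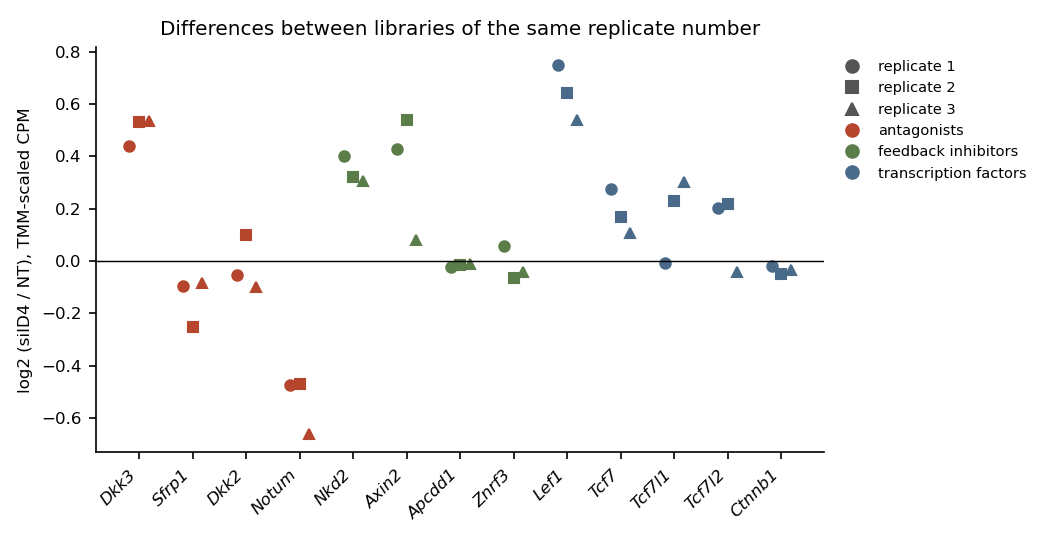
Log2 ratio of siID4 over NT between libraries of the same replicate number, for 13 antagonists, feedback inhibitors and transcription factors, with a symbol per number. Dkk3, Nkd2, Axin2, Lef1 and Tcf7 lie above 0 in all 3 numbers, Notum lies between -0.66 and -0.47, and Apcdd1 and Ctnnb1 lie close to 0.

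Other genes of the pathway were taken from lists arranged by role. The lists were chosen with earlier results of these data known, so their shares beside those of all genes are description and not a test. Among 16 tested genes of Wnt secretion and of modifiers outside the cell, 6 rose and 3 fell, or 56.2% against 9.55% of all genes, with a list median log2 fold change of 0.36. With the block, 9 were higher and 3 lower (75.0%, against 36.1%). Sostdc1, a secreted antagonist of Wnt and BMP signals, had 2.68, 2.58 and 2.02 CPM in siID4 cells, against 1.00, 0.78 and 0.70 CPM in NT cells (log2 fold change 1.55, SE 0.23, adjusted p = 0.00466). Trabd2b, a membrane protease that inactivates Wnt proteins, averaged 31.3 ± 1.35 CPM in siID4 and 20.4 ± 0.803 CPM in NT cells (log2 fold change 0.62, adjusted p = 0.00168). Gpc1, a cell-surface heparan sulfate proteoglycan, averaged 137 ± 6.76 CPM in siID4 and 205 ± 11.1 CPM in NT cells (log2 fold change -0.58, adjusted p = 7.78e-04). Adgra2, a receptor that aids WNT7 signalling in endothelium, averaged 54.9 ± 2.61 CPM in siID4 and 80.5 ± 1.43 CPM in NT cells (log2 fold change -0.55, adjusted p = 7.85e-04).

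Rspo3 and Wls were singled out after their values were seen. Rspo3 encodes an R-spondin, the ligand of LGR receptors, and had 4.75, 5.03 and 3.90 CPM in siID4 cells, against 2.26, 2.14 and 1.36 CPM in NT cells (log2 fold change 1.26, SE 0.21, adjusted p = 0.00743). Wls encodes the carrier that brings Wnt proteins to the cell surface, and had 376, 349 and 322 CPM in siID4 cells, against 307, 262 and 250 CPM in NT cells (log2 fold change 0.35, SE 0.08, adjusted p = 0.0334). Both had arms that did not overlap. Wls did not pass without siID4 replicate 1 or 2 or NT replicate 2 or 3 (up to 0.120).

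Of 41 tested members of the degradation complex, Dishevelled and nuclear cofactor list, Dvl3 alone passed (log2 fold change 0.24, adjusted p = 0.0456, and up to 0.182 without a library). This 1 of 41 is a smaller share than the 9.55% of all genes. The list median was 0.03, and with the block 13 were higher and 2 lower (36.6%, against 36.1% of all genes). Of 29 tested genes of planar polarity and other β-catenin-independent branches, 2 rose (6.90%, against 9.55% of all genes), with a median of 0.11 and 9 higher and 2 lower with the block (37.9%, against 36.1%). Both shares were near those over all genes. They were Fat4, an atypical cadherin, at 92.2 ± 13.6 CPM in siID4 and 51.5 ± 6.61 CPM in NT cells (log2 fold change 0.84, adjusted p = 0.00650), and Dact1, which binds Dishevelled, at 1.75 ± 0.227 CPM in siID4 and 0.863 ± 0.189 CPM in NT cells. Dact1 rose by 1.00 on the log2 scale (adjusted p = 0.0329) and passed in 1 of the 6 fits without a library.

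Of 31 tested genes on a list of Wnt-responsive genes other than the members, 6 rose and 2 fell (25.8%, against 9.55% of all genes), with a median of 0.04. With the block 11 were higher and 11 lower (71.0%, against 36.1%). Mmp7 met the filter on low counts in fewer than 3 libraries of an arm. Without Mmp7, 8 of 30 (26.7%) passed in the fit without the block. Wisp1 and Wisp2, both of the CCN family of secreted proteins, averaged 110 ± 7.31 and 74.2 ± 5.96 CPM in siID4 cells, against 63.3 ± 5.73 and 28.7 ± 5.94 CPM in NT cells. Their log2 fold changes were 0.79 (adjusted p = 6.63e-04) and 1.37 (adjusted p = 0.00123). Enc1 rose by 0.33 (adjusted p = 0.00322). Ccnd1, the cyclin D1 gene, had 555, 567 and 588 CPM in siID4 cells, against 684, 699 and 773 CPM in NT cells, and so lay on the other side (log2 fold change -0.33, adjusted p = 0.00657). This list too was chosen with earlier results of these data known, and its genes also answer to other pathways.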

How the data were processed

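The deposited table holds expected counts per gene for 6 libraries. Per the submitters' processing notes, the authors used cutadapt, STAR and RSEM with mm10; no source here gives their versions, the annotation, the strand setting of the counting or any filter. The library kit was stranded, per the labels' protocols, but reads of antisense neighbours may still not be told apart. Expected counts were rounded (10.0% to 10.6% of values were not whole, tolerance 0). Lengths were the table's, a deposited value of other kind than a count. Genes were tested with edgeR 4.0.16 (R 4.3.3) by the quasi-likelihood test, robust, with TMM and group as the only term. filterByExpr (minimum count 10) kept 13941 genes, and calls were made at a Benjamini-Hochberg adjusted p under 0.05. Levels are TMM-scaled CPM, mean ± SD, n = 3 per arm. SEs derive from the F statistic. The biological coefficient of variation was 7.83%. Total counts were 19.2 M to 23.1 M per library.

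Same-numbered libraries deviated together (correlation across genes 0.42, 0.14 and 0.38), so the numbers were taken as pairs; what a number stands for is not labelled. The series describes biological replicates without naming separate cultures, so p-values measure the spread between these libraries, which may be technical. Chi-square per gene between libraries of an arm was 4.81 to 12.8, well above sampling noise, so none was a repeat deposit. Alternatives were 3 other scalings, 2 other filters, DESeq2 1.42.0, limma-voom (limma 3.58.1), the block and leaving out each library. The fit was also run on simulated data, drawn with a common dispersion for all genes and no effect of the replicate number, unlike these libraries. Of 100 genes changed 1.5-fold 95 were recovered, and of 100 changed 2-fold 100, with 7 false calls. Members and lists were chosen with earlier results of these data known. Values for each library were given for Id4, called members, Lef1, Notum, Nkd2, Axin2, Ctnnb1 and the 2 most abundant members of each role. Outside that rule they were also given for Wnt9a, Wnt16, Fzd1, Lgr6, Sfrp1, Znrf3, Rspo3 and Wls. Of each other list, up to 4 called genes with the smallest adjusted p were named, some with a mean and SD or a fold change only. Coordinates are from GENCODE M21 (GRCm38, that is mm10), and promoter windows from RefSeq.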

Additional observations from a re-analysis of the deposited data

How the results depend on the processing

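With the replicate number as a block, 5038 genes passed (2493 higher, 2545 lower), against 1331 (644 higher, 687 lower) without it. Of the members 20 passed (15 higher, 5 lower), against 6, of the other pathway genes 38, against 12, and of the Wnt-responsive genes 22, against 8. The block ended no call among the 6 members. Leaving out single libraries gave 445 to 1351 genes (221 to 686 higher, 224 to 665 lower), 1 to 8 members (1 to 8 higher, 0 to 2 lower), 8 to 11 other pathway genes and 5 to 8 Wnt-responsive genes; the cause was not tested, though each such fit has fewer samples. With library totals as the scaling, 829 genes were higher and 564 lower. Over 565 values of members under 14 alternatives, 481 kept direction and side of the threshold, 26 newly passed, 18 no longer passed and 40 changed sign.

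None of the values with the other sign passed the test. With library totals Fzd3 was 0.027, Ror1 0.010, Apcdd1 0.013, Znrf3 0.017, Wnt7b 0.022 and Dkk2 0.015 on the log2 scale. Fzd3 was also 0.0046 with upper quartile scaling, 0.00051 with no filter, 0.0091 with a mean of at least 5 CPM, 0.0047 with limma-voom and 0.0026 with the block. Lrp6 was -0.0022 with DESeq2 size factors and with DESeq2, and -0.00024 with the block. Wnt7b was 0.0036 with a mean of at least 5 CPM, 0.00056 with limma-voom and 0.00035 with the block. Leaving out 1 library at a time gave -0.113 to 0.057 for Fzd3, -0.013 to 0.077 for Fzd5, -0.041 to 0.043 for Lrp6, -0.039 to 0.0022 for Ror1, -0.0998 to 0.072 for Apcdd1, -0.0999 to 0.080 for Znrf3, -0.144 to 0.158 for Wnt7b, -0.276 to 0.091 for Wnt10a, -0.047 to 0.357 for Wnt4, -0.068 to 0.038 for Dkk2 and -0.054 to 0.743 for Wif1. The cause was not tested. At this depth 15 members could not be tested, 4 of them with no count in any library.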
